A study of Mus musculus with 14 samples.

Results

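The genes described here are 10 immediate early genes, Fos, Fosb, Jun, Junb, Egr1, Egr2, Ier2, Ier3, Dusp1 and Klf6, followed across tumours of 2 mouse strains given an inhibitor of the acetate-using enzyme ACSS2 or vehicle. They were taken by name, by no threshold on a measured value, but with earlier results of these data known. All 10 were in the table of 51789 genes and all 10 were among the 17294 genes with enough counts to be tested. Not all of them encode transcription factors: Dusp1 is a phosphatase and Ier3 a regulator of cell survival.

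The series title sets the tumours in triple negative breast cancer. The libraries form 4 groups by strain and treatment: NGS vehicle (n = 3), NGS ACSS2i (n = 3), C57BI6 vehicle (n = 4) and C57BI6 ACSS2i (n = 4). The strains are named here as the labels have them, NGS mouse and C57BI/6 mouse; which strain NGS stands for is unclear. The sources used here do not give the tumour cells, the compound, its dose, the time of treatment or the animals' age, and no label gives a library the Bmal1 status that the design line mentions. RNA came from pulverised bulk tumour and was read at the 3' end of polyadenylated transcripts (QuantSeq), so each value mixes tumour cells with stroma, vessels and blood. In such samples a change in the number of cells of a type and a change in RNA per cell cannot be told apart.

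Depth followed the strain. Libraries of the NGS strain held 2.85 to 4.70 M counts (M for 1000000) and those of the C57BI6 strain 17.6 to 20.3 M, so strain and depth cannot be told apart. Of the epithelial markers, Krt8 stood at 187 to 380 and Krt18 at 16.9 to 51.9 CPM (counts scaled to a library total of 1000000), while Epcam reached at most 4.04 CPM and was at 0 in 2 libraries. Krt14 averaged 132 CPM in NGS vehicle and 0.0283 CPM in C57BI6 vehicle, and Krt5 59.7 and 0.0260 CPM. Krt8 ran the other way, averaging 208 CPM in NGS vehicle and 318 CPM in C57BI6 vehicle. The highest NGS vehicle library held 324 CPM of Krt14 and 177 CPM of Krt5, so those means rest largely on single libraries. NGS vehicle 1 and NGS ACSS2i 1 held the most RNA of skin genes, with summed levels of 927 and 480 CPM against 10.8 to 25.3 in the other libraries.

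Immediate early genes are the first to be transcribed when a cell receives a growth factor, a cytokine, a mechanical stimulus or a stress, because the factors that switch them on are already present and need only be phosphorylated. Kinases of the ERK, JNK and p38 cascades act on SRF with its ternary complex partners, on CREB and on ATF2 and JUN at their promoters, and the transcripts are made and destroyed quickly. FOS and JUN family proteins pair to form AP-1, which binds the sequences TGACTCA and TGACGTCA, while EGR proteins are zinc finger factors that bind a GC-rich site. In tissue these genes are also known to respond to handling and to the delay before RNA is preserved.

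The promoters of the members were searched for the sites of these factors next to the start. Those of 5 genes are printed because these genes carry the largest differences or the clearest motifs. Each line gives the 150 bases before the RefSeq transcription start (GRCm38.p6), 5′ to 3′ on the gene's strand, and capitals mark the motifs found by an exact search of both strands.
Fos: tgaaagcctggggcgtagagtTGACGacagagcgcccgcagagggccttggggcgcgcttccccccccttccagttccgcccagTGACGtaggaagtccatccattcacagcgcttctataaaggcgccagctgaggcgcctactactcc
Fosb: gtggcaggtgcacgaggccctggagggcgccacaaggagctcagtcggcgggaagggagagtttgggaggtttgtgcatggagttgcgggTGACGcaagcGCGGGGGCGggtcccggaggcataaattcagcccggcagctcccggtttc
Jun: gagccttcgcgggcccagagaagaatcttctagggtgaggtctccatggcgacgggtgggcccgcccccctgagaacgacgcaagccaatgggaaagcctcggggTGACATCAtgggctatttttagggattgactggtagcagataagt
Egr2: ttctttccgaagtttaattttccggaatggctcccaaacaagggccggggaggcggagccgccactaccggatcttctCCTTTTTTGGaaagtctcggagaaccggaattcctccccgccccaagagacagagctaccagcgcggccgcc
Dusp1: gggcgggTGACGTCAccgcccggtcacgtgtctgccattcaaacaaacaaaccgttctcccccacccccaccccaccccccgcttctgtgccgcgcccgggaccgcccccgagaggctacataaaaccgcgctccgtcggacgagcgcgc
The Fos window lies at chr12:85473740-85473889 (plus strand) and ends at the base before the gene. That of Jun, chr4:95052223-95052372 (minus strand), likewise ends next to the gene, and that of Fosb, chr7:19310046-19310195 (minus strand), overlaps the end of its GENCODE record by a few bases. The windows of Egr2, chr10:67537416-67537565 (plus strand), and Dusp1, chr17:26508473-26508622 (minus strand), fall inside the longer gene records of the GENCODE annotation. RefSeq's table held promoters for 8 of the 10 genes; Ier2 and Egr1 were not in it.

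In the 250 bases before the start, Dusp1 held the full cyclic AMP response element TGACGTCA, bound by CREB and ATF factors, 143 bases upstream. The element was present in 1.77% of 27025 genes with a promoter in the table. Jun held TGACATCA, the AP-1-like element through which JUN and ATF2 act on the Jun promoter, 45 bases upstream, and Klf6 held it 119 bases upstream, against 3.41% of all genes. Fosb held the EGR site GCGGGGGCG 50 bases upstream (2.93% of all genes), and Egr2 a CArG box, the site of SRF, 72 bases upstream (1.62%). The classic AP-1 site TGACTCA was found in 0 of the 8 (5.16% of all genes). The shorter element TGACG, which also lies inside TGACGTCA and was added to the search after the windows had been read, was found in Fos, Fosb, Junb, Egr2 and Dusp1, 5 of 8 against 19.8% of all genes. For Egr2 it lies before other RefSeq starts than the one shown. A match is a description of the letters and not a bound site.

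By the GENCODE M21 annotation of the same build, Fos lies at chr12:85473890-85477273, Fosb at chr7:19302696-19310051, Jun at chr4:95049034-95052222, Egr2 at chr10:67535475-67542188 and Klf6 at chr13:5861482-5870394. Ier3 (chr17:35821684-35822923) and Dusp1 (chr17:26505590-26562128) share a chromosome, as do Junb (chr8:84974484-84978718) and Ier2 (chr8:84661331-84662852), which lie near each other. No position is given for Egr1.

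Across the 4 groups, the 10 genes were ordered by strain rather than by treatment. In each of them both C57BI6 groups had a higher mean CPM than both NGS groups. Which treatment ranked first within a strain varied: among the C57BI6 groups vehicle ranked above ACSS2i in 8 genes and below it in Egr2 and Ier2.

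**Figure D1:**
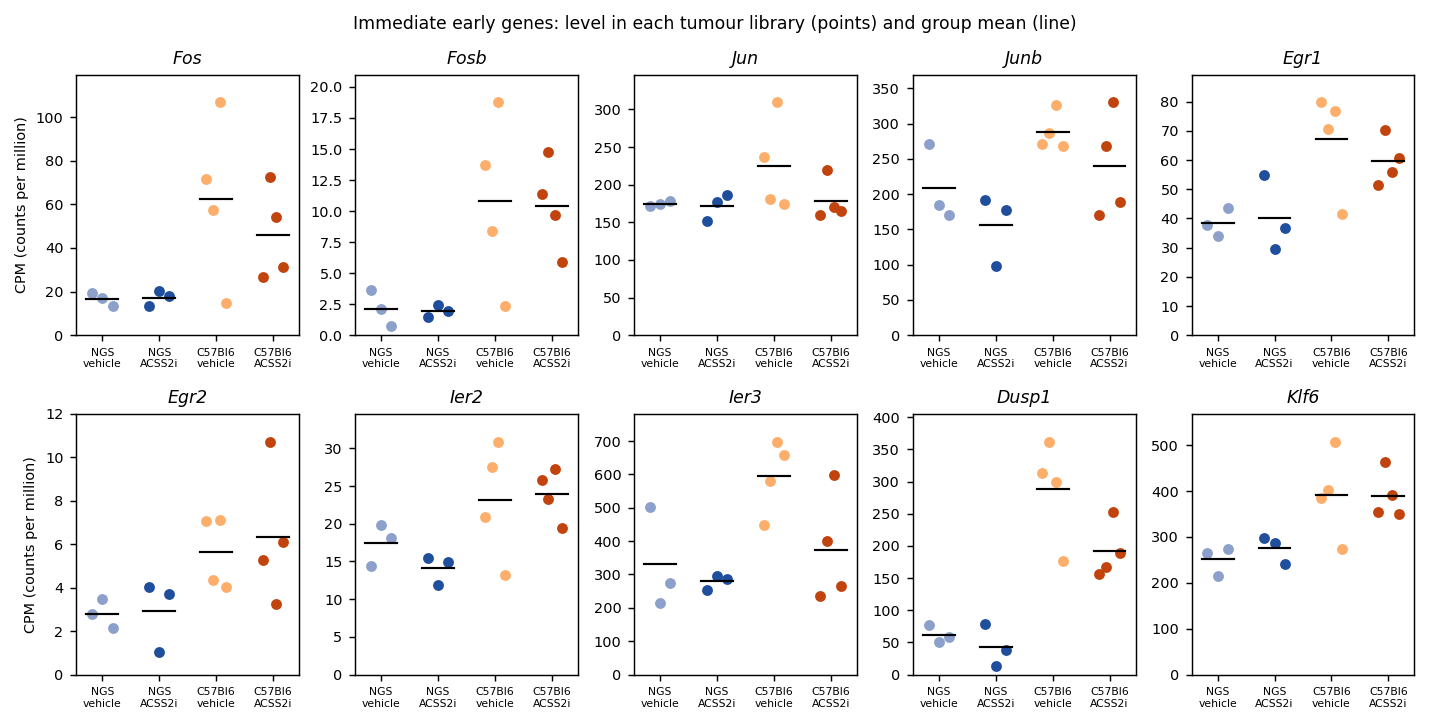
CPM of each of the 10 genes (y axis, starting at 0) in the 4 groups (x axis), with 1 point per library and a line at the group mean. Fos reached 107 CPM in 1 C57BI6 vehicle library and 15.0 in another, while the 6 NGS libraries lay between 13.2 and 20.4.

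Fos, the AP-1 subunit that is made on demand and cannot bind DNA without a JUN partner, measured 19.4, 17.3 and 13.5 CPM in NGS vehicle and 13.2, 20.4 and 17.8 CPM in NGS ACSS2i. In C57BI6 vehicle it measured 71.5, 57.3, 107 and 15.0 CPM, and in C57BI6 ACSS2i 26.6, 72.3, 54.2 and 31.2 CPM. All C57BI6 libraries but vehicle 4 lay above all NGS libraries, and the treated and vehicle libraries overlapped in both strains. Group means were 16.7 ± 2.94 and 17.1 ± 3.65 CPM in NGS vehicle and ACSS2i (SD, n = 3) and 62.6 ± 37.9 and 46.1 ± 21.2 CPM in C57BI6 (SD, n = 4). In order of level, C57BI6 vehicle came first, then C57BI6 ACSS2i, NGS ACSS2i and NGS vehicle, and only the step between the strains had ranges that did not overlap.

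Fosb, a close relative of Fos whose product also needs a JUN partner, was scarce in the NGS tumours. It measured 3.62, 2.07 and 0.713 CPM in NGS vehicle and 1.43, 2.46 and 1.98 CPM in NGS ACSS2i, which are only 3 to 17 counts a library. The C57BI6 libraries gave 13.7, 8.42, 18.8 and 2.38 CPM with vehicle and 11.4, 14.7, 9.67 and 5.86 CPM with ACSS2i. As with Fos, C57BI6 vehicle 4 was the single C57BI6 library inside the NGS range. Fosb and Fos followed each other within the groups (r = 0.84 over the 14 libraries after each group's mean was subtracted, the highest of all pairs of members, given as a description).

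Jun encodes the DNA-binding partner of FOS and acts on its own promoter. It was nearly level in NGS vehicle, at 172, 174 and 178 CPM, and in NGS ACSS2i it measured 151, 177 and 187 CPM. C57BI6 vehicle gave 237, 181, 309 and 174 CPM and C57BI6 ACSS2i 159, 219, 170 and 165 CPM. The ranges of all 4 groups overlapped, and the 2 highest values were both in C57BI6 vehicle. Junb, a JUN family member that often dampens the activity of JUN, measured 272, 185 and 170 CPM in NGS vehicle and 192, 98.7 and 177 CPM in NGS ACSS2i. Its C57BI6 vehicle libraries were close together at 271, 287, 326 and 268 CPM, whereas C57BI6 ACSS2i spread over 171, 269, 330 and 188 CPM.

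Egr1, the zinc finger factor of the early growth response, measured 37.9, 34.1 and 43.7 CPM in NGS vehicle and 54.8, 29.5 and 36.7 CPM in NGS ACSS2i. It measured 79.7, 70.6, 76.7 and 41.4 CPM in C57BI6 vehicle and 51.5, 70.1, 55.9 and 60.7 CPM in C57BI6 ACSS2i. Here too C57BI6 vehicle 4 was the lowest of its group. Egr2, its relative known from nerve sheath and lymphocyte development, was low throughout, with means of 2.79 ± 0.659 and 2.93 ± 1.63 CPM in NGS vehicle and ACSS2i (SD, n = 3) and 5.64 ± 1.69 and 6.33 ± 3.16 CPM in C57BI6 (SD, n = 4). NGS ACSS2i 2 held 1.05 CPM of Egr2, from 3 counts.

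The small nuclear protein IER2 has no DNA-binding domain that is well established. Ier2 measured 14.5, 19.8 and 18.1 CPM in NGS vehicle, 15.5, 11.9 and 14.9 CPM in NGS ACSS2i, 20.9, 27.5, 30.9 and 13.2 CPM in C57BI6 vehicle and 25.8, 23.3, 27.3 and 19.5 CPM in C57BI6 ACSS2i. Ier3, an early response gene induced by NF-κB and p53 that affects cell survival, measured 503, 215 and 275 CPM in NGS vehicle and 254, 297 and 286 CPM in NGS ACSS2i. In C57BI6 it measured 449, 579, 698 and 658 CPM with vehicle and 234, 401, 598 and 264 CPM with ACSS2i. All treated C57BI6 libraries but ACSS2i 3 lay below all vehicle libraries of that strain. NGS vehicle 1, the library with the most skin RNA, had the highest Ier3 of the NGS libraries; the part of that RNA in the value was not tested.

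Dusp1, the phosphatase that shuts off ERK, JNK and p38 and so ends the signal that induced it, had the smallest p of the 10 in both comparisons of the strains given further on. It measured 76.8, 50.7 and 58.5 CPM in NGS vehicle and 78.0, 13.4 and 38.2 CPM in NGS ACSS2i. C57BI6 vehicle gave 313, 362, 300 and 176 CPM and C57BI6 ACSS2i 156, 167, 253 and 189 CPM. Every C57BI6 library lay above every NGS library. Klf6, a zinc finger factor known as a growth suppressor, measured 264, 215 and 274 CPM in NGS vehicle and 298, 287 and 242 CPM in NGS ACSS2i, against 385, 403, 508 and 274 CPM in C57BI6 vehicle and 355, 464, 391 and 350 CPM in C57BI6 ACSS2i. Among the C57BI6 libraries only vehicle 4 reached down into the NGS range.

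The first comparison asked whether the ACSS2 inhibitor altered these genes in tumours of C57BI6 mice. None passed: by edgeR's quasi-likelihood test with Benjamini-Hochberg adjustment over all genes, 0 of the 10 had an adjusted p under 0.05, where 54 of the 17294 genes tested, 0.312%, did. The count was also 0 by DESeq2, by limma voom and when any 1 of the 14 libraries was left out. Unadjusted, 2 of the 10, Jun and Ier3, had p under 0.05, against 7.96% of all genes. No member had treated and vehicle libraries that did not overlap, which 8.94% of all genes did. The count over all genes became 94 and 127 without NGS ACSS2i 1 or 2, 15, 17 and 25 without C57BI6 vehicle 2, 3 or 4, and 35, 15, 31 and 19 without C57BI6 ACSS2i 1, 2, 3 or 4.

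The estimates leaned to lower values with the inhibitor without passing. The log2 fold change was negative in 9 of the 10, with a median of -0.28 against -0.01 over all genes tested. Of all genes, 47.3% had positive estimates. The members shared part of their spread within single tumours, so they are not 10 separate observations. Of the 9 negative members, Ier2 (-0.01) turned positive in 13 of 21 alternatives, the size factors of DESeq2 among them. Klf6 was at 0.11 without C57BI6 vehicle 3, and Fosb turned positive in 4 alternatives, up to 0.33 without C57BI6 vehicle 3. Ier3 was at -0.73 ± 0.29 (SE, edgeR adjusted p = 0.462), Dusp1 at -0.65 ± 0.34 (adjusted p = 0.716), Fos at -0.51 ± 0.42 (adjusted p = 0.888) and Jun at -0.40 ± 0.17 (adjusted p = 0.512). The unadjusted 95% intervals of the fold change were 0.39 to 0.92 for Ier3, 0.37 to 1.31 for Fos, 0.47 to 1.81 for Fosb and 0.75 to 1.2 for Klf6, so the range of changes the data allow was narrow for Klf6 and wide for Fos and Fosb. The Fos estimate moved to -0.08 without C57BI6 vehicle 3 and to -0.81 without C57BI6 vehicle 4. Among the lists of related genes, 0 of 15 other AP-1 genes, 0 of 15 other immediate early transcription factors, 0 of 36 immediate early effectors, 0 of 28 upstream kinases and factors, 0 of 12 heat shock genes and 0 of 12 later genes linked to AP-1 passed the edgeR test in this strain. Unadjusted, 3, 1, 6, 0, 1 and 2 of them had p under 0.05, and over the alternatives, DESeq2 and voom included, up to 3 effectors were called lower, up to 1 effector higher and up to 2 other AP-1 genes higher. Among the effectors, Spry2, an inhibitor of growth factor signalling, was nearest to the threshold, at -0.63 ± 0.13 (edgeR adjusted p = 0.0525). Marker sums of lymphocytes differed between these groups, and their part in the values was not tested: summed T cell genes ranged from 11.4 to 19.2 CPM with vehicle and 25.7 to 51.3 CPM with ACSS2i, and natural killer cell genes from 6.52 to 9.84 CPM and 17.8 to 45.6 CPM. By edgeR 0 of 8 T cell genes (8 at unadjusted p under 0.05) and 1 of 7 natural killer cell genes were called higher, as was 1 of 9 macrophage and monocyte genes, all 9 of which had positive estimates.

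In the NGS strain the same comparison gave 0 of 10 members past the threshold, where 466 of all genes, 2.69%, passed the edgeR test. None had an unadjusted p under 0.05 (22.1% of all genes did), none had groups that did not overlap (18.8% of all genes did), and DESeq2 and limma voom also called 0. The median log2 fold change was -0.14 against -0.01 over all genes. Estimates were negative in 7 of 10 members, where 45.9% of all genes had positive ones. Of these 7, Fos (-0.02) turned positive in 12 of 21 alternatives, the size factors of DESeq2 among them. Fosb and Ier3 turned positive without NGS vehicle 1 (0.41 and 0.14) and Jun without NGS ACSS2i 1 (0.02). Dusp1 was at -0.55 ± 0.42 (adjusted p = 0.461) and Junb at -0.46 ± 0.27 (adjusted p = 0.323). The Dusp1 estimate rested on NGS ACSS2i 2 at 13.4 CPM: without that library it was -0.13 (adjusted p = 0.911), and without NGS ACSS2i 1, at 78.0 CPM, it was -1.27 (adjusted p = 0.0529). Fosb, with few counts, had an interval of 0.24 to 3.19 in fold change, which leaves changes of 2-fold in either direction inside it. The count over all genes became 192, 248 and 245 without NGS vehicle 1, 2 or 3, 1766, 136 and 204 without NGS ACSS2i 1, 2 or 3, 310 and 300 without C57BI6 vehicle 1 or 3, and 293, 295 and 275 without C57BI6 ACSS2i 1, 3 or 4.

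Among related genes, 5 fell with the inhibitor in the NGS strain, where 1.38% of all genes were called lower and 1.32% higher. Of 36 immediate early effectors, 2 fell and 0 rose: Zfp36l1, which destabilises AU-rich transcripts, from 297 ± 19.9 to 203 ± 17.8 CPM (SD, n = 3 each; log2 fold change -0.59 ± 0.13, edgeR adjusted p = 0.0275), and Spry1, an inhibitor of growth factor signalling, from 7.83 ± 0.600 to 2.48 ± 1.59 CPM (-1.69 ± 0.39, adjusted p = 0.0366). Of 28 upstream genes, 2 fell and 0 rose, the ERK-activated kinase gene Rps6ka3 (-0.61 ± 0.14, adjusted p = 0.0306) and Nras (-0.53 ± 0.12, adjusted p = 0.0316). Vim, the intermediate filament gene listed among later AP-1-linked genes, fell by 0.78 (adjusted p = 0.0270), 1 of 12. Nr4a1, an immediate early nuclear receptor, missed the threshold at -2.06 ± 0.63 (edgeR adjusted p = 0.0816). Leaving out NGS ACSS2i 2, NGS ACSS2i 3 or NGS vehicle 1 lost all 5 calls, as did voom and the compared groups alone (adjusted p up to 0.253), and all but that of Nras without NGS vehicle 2. Those of Spry1, Rps6ka3 and Nras were also lost without NGS vehicle 3, C57BI6 vehicle 1 or C57BI6 ACSS2i 4, those of Rps6ka3 and Nras without C57BI6 vehicle 3, and those of Spry1 and Nras without C57BI6 ACSS2i 1. Summed fibroblast genes ran from 8780 to 9672 CPM with vehicle and 7171 to 7869 CPM with ACSS2i in this strain, with 2 of 7 lower. Of neutrophil genes 1 of 6 was lower, of macrophage and monocyte genes 1 of 9 was higher, and skeletal muscle sums ran from 262 to 6176 CPM with vehicle and 15.1 to 612 CPM with ACSS2i. The part of these cells in the values, that of Vim included, was not tested. NGS ACSS2i 2 was also the library in which 14 of 15 other immediate early transcription factors and 31 of 36 effectors lay below their group's mean, while 46.9% of all genes lay above it; of the 10 members, 5 lay above and 5 below.

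The inhibitor's effect was not shown to differ between the strains for any of the 10. In the test of the interaction (C57BI6 effect minus NGS effect), 0 of 10 passed by edgeR, DESeq2 or limma voom and 0 had an unadjusted p under 0.05, where 3 of all genes, 0.0173%, passed by edgeR. The interaction of Fos was -0.50 ± 0.72, that of Dusp1 -0.09 ± 0.54 and that of Klf6 -0.17 ± 0.25 on the log2 scale. The 95% intervals of the ratio of the effects ran from 0.243 to 2.07 for Fos, 0.247 to 4.54 for Fosb, 0.393 to 2.67 for Egr2 and 0.422 to 2.08 for Dusp1, so differences of 2-fold in either direction lie inside them.

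**Figure D2:**
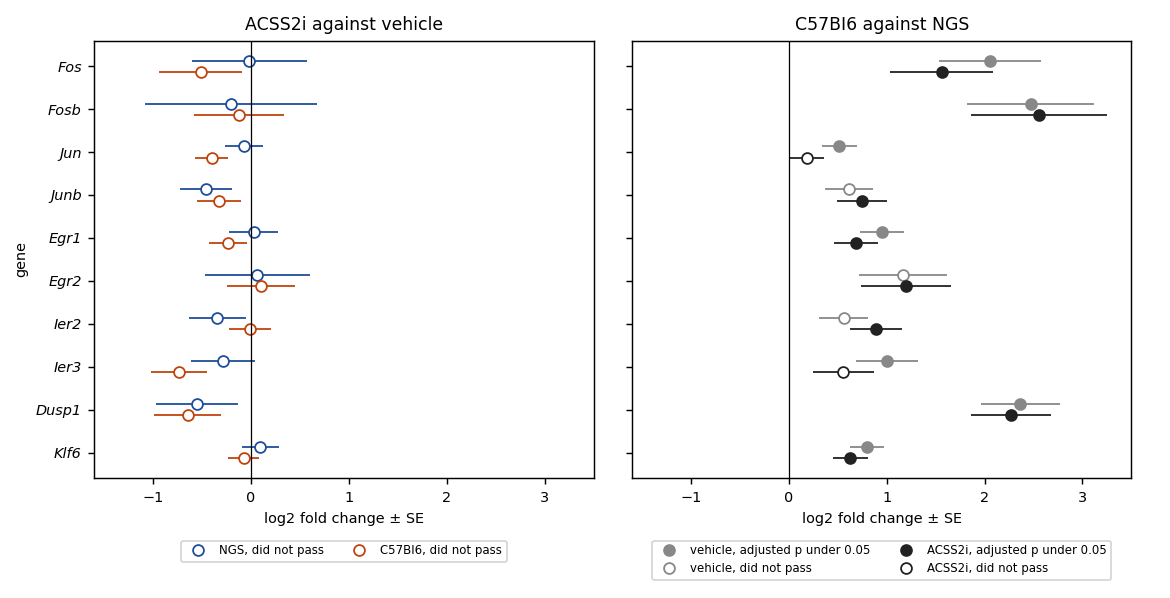
Log2 fold change with its standard error (x axis) of each gene (y axis), for ACSS2i against vehicle on the left and C57BI6 against NGS on the right; filled points have an edgeR adjusted p under 0.05. No point on the left is filled, and on the right 7 genes are filled for vehicle and 8 for ACSS2i.

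Between the strains the genes differed in one direction. With vehicle, 7 of the 10 were higher in C57BI6 than in NGS tumours at adjusted p under 0.05, and 18.8% of all genes were called higher. Dusp1 was 5.15-fold higher (log2 fold change 2.36 ± 0.40, edgeR adjusted p = 0.000435), Fosb 5.54-fold (2.47 ± 0.65, adjusted p = 0.00935) and Fos 4.16-fold (2.06 ± 0.52, adjusted p = 0.00754). Smaller differences passed for Ier3 (1.01 ± 0.32, adjusted p = 0.0240), Egr1 (0.95 ± 0.23, adjusted p = 0.00499), Klf6 (0.80 ± 0.18, adjusted p = 0.00305) and Jun (0.52 ± 0.18, adjusted p = 0.0407). Egr2 (1.16 ± 0.45, adjusted p = 0.0595), Junb (0.62 ± 0.25, adjusted p = 0.0707) and Ier2 (0.56 ± 0.25, adjusted p = 0.101) did not pass. All 10 estimates were positive, as were 51% of those of all genes, with a median of 0.98 against 0.01 over all genes. Egr2 and Dusp1, 2 of 10, had no overlap between the groups, against 17.5% of all genes with C57BI6 higher.

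The calls of Egr1, Dusp1 and Klf6 in vehicle tumours held under every alternative run. Those of Fos and Fosb held except with limma voom and library weights (adjusted p = 0.0777 and 0.153). The call of Jun was lost with the compared groups alone (adjusted p = 0.0732), without any 1 of the 3 NGS vehicle libraries and without C57BI6 vehicle 1 or 3 (adjusted p up to 0.122). That of Ier3 was lost without NGS vehicle 2 or 3 or C57BI6 vehicle 3 or 4 (up to 0.110). Without NGS vehicle 1 the Fosb estimate rose to 3.08 (adjusted p = 0.0145). Of the 3 genes that did not pass, Junb passed in 7 alternatives, among them DESeq2 (adjusted p = 0.0448), voom (0.0418), no filter (0.0393) and the compared groups alone (0.0151). Egr2 passed in 5, among them DESeq2 (0.0354) and the compared groups alone (0.0260), and Ier2 passed without C57BI6 vehicle 4 (0.75, adjusted p = 0.0112).

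With the inhibitor the pattern between strains was similar in size, in libraries other than those of the vehicle comparison. Here 8 of 10 were higher in C57BI6, where 23.1% of all genes were, and the median was 0.82 against 0.06 over all genes. Dusp1 was 4.82-fold higher (2.27 ± 0.41, edgeR adjusted p = 0.000558), Fosb 5.87-fold (2.55 ± 0.70, adjusted p = 0.00940) and Fos 2.95-fold (1.56 ± 0.53, adjusted p = 0.0288). Ier2 (0.89 ± 0.26, adjusted p = 0.0145), Junb (0.75 ± 0.25, adjusted p = 0.0277), Egr1 (0.69 ± 0.23, adjusted p = 0.0258), Klf6 (0.63 ± 0.18, adjusted p = 0.0110) and Egr2 (2.29-fold, SE 0.46 on the log2 scale, adjusted p = 0.0493) passed as well. Jun at 0.18 ± 0.18 (adjusted p = 0.444) and Ier3 at 0.56 ± 0.31 (adjusted p = 0.171) did not. Fos, Fosb, Ier2, Dusp1 and Klf6, 5 of 10, had no overlap between the strains, against 21.7% of all genes.

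Several of these calls depended on single libraries. Without NGS ACSS2i 2, 3 of 10 passed, Fosb (2.72, adjusted p = 0.0246), Dusp1 (1.86, adjusted p = 0.000715) and Klf6 (0.66, adjusted p = 0.0224). Limma voom with library weights also called 3 (Egr1, Dusp1 and Klf6), without C57BI6 ACSS2i 2 the count was 4, and without NGS ACSS2i 3 it was 5. The call of Fos was lost without any 1 of the NGS ACSS2i libraries or C57BI6 ACSS2i 2 or 3 (adjusted p up to 0.0875), that of Junb also without C57BI6 ACSS2i 2 or 3 (up to 0.121, without NGS ACSS2i 2) and with the compared groups alone (0.0678), that of Egr1 without NGS ACSS2i 2 or 3 or C57BI6 ACSS2i 2 (up to 0.115), and that of Ier2 without NGS ACSS2i 2 (0.0548). Egr2, just inside the threshold, was lost without any 1 library except C57BI6 ACSS2i 3, with the size factors of DESeq2 (0.0523), with the stricter filter, with voom and with the compared groups alone. Dusp1 and Klf6 passed under every alternative run, and Fosb under all but voom (adjusted p = 0.171). Dusp1 moved to 3.00 without NGS ACSS2i 1 (adjusted p = 6.47e-05). With the size factors of DESeq2 no member changed sign in either strain comparison. Those factors place the median of all genes near that of TMM (0.030 against 0.043 with vehicle, 0.098 against 0.118 with ACSS2i). The choice between TMM and library totals shifts that median by 0.14, and a fit by library totals was not among the alternatives.

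Related genes were also counted between the strains. Of 36 immediate early effectors, 16 were higher and 1 lower in C57BI6 vehicle tumours, with a median of 0.61 against 0.01 over all genes, and 20 higher and 1 lower with ACSS2i. They included Nfkbia, which holds NF-κB in the cytoplasm, at 812 ± 108 against 385 ± 40.4 CPM in vehicle (log2 fold change 1.23 ± 0.16, edgeR adjusted p = 3.11e-05), Phlda1 at 253 ± 42.8 against 117 ± 6.85 CPM (1.27 ± 0.16, adjusted p = 2.90e-05), and the stress genes Nfkbiz (1.03) and Gadd45b (1.24). Of 15 other immediate early transcription factors, 4 were higher and 0 lower with vehicle and 8 and 0 with ACSS2i. Over all genes 18.8% were called higher with vehicle and 23.1% with ACSS2i. Over the alternatives the number of these factors called higher ran from 2 to 6 with vehicle and 5 to 9 with ACSS2i. Nfil3 and Klf4 passed in both treatments, and Csrnp1 was at 24.1 ± 10.2 against 8.32 ± 1.57 CPM with vehicle (1.68 ± 0.36, adjusted p = 0.00258). The call of Klf4 in vehicle was lost without NGS vehicle 2 or 3 or C57BI6 vehicle 3, and that of Ier5 (0.64, adjusted p = 0.0118) without NGS vehicle 2.

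Of 15 other AP-1 genes, 3 were higher and 2 lower with vehicle, and 3 and 3 with ACSS2i. Over all genes 18.8% were called higher and 14% lower with vehicle, and 23.1% and 17.2% with ACSS2i, so the shares of this list were near those of all genes. Atf3, a stress-induced member, was 4.28-fold higher in C57BI6 vehicle tumours (2.10 ± 0.34, edgeR adjusted p = 0.000257) and Mafg was higher by 0.54 on the log2 scale, while Maf was lower (-0.60 ± 0.13, adjusted p = 0.00252). The later genes linked to AP-1 held 3 higher and 1 lower of 12 with vehicle and 6 and 1 with ACSS2i. With vehicle the matrix proteases Mmp3, 12.5-fold, and Mmp13, 6.08-fold, and the matrix protein gene Spp1, 4.09-fold, were higher, and Timp1, an inhibitor of such proteases, was lower (-1.05 ± 0.14, adjusted p = 5.20e-05). With ACSS2i Mmp3 was 5.07-fold and Mmp13 3.27-fold higher; the edgeR interaction of Mmp3 had an adjusted p of 0.205. Of 28 upstream genes, 4 were higher and 3 lower with vehicle and 4 and 4 with ACSS2i, no more than the shares of all genes; Srf passed in both treatments (0.54 and 0.80), but its call with vehicle was lost without any 1 of NGS vehicle 1 or 2 or C57BI6 vehicle 1, 2 or 3. Of 12 heat shock genes, 0 passed with vehicle, where 2 had an unadjusted p under 0.05 (43.3% of all genes did) and the alternatives, DESeq2 and voom included, called at most 1, and 2 were higher and 3 lower with ACSS2i.

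Markers of other cells moved with the strain too, and their part in these differences was not tested. The summed neutrophil markers ranged from 15.4 to 77.6 CPM in NGS vehicle, 17.2 to 24.9 in NGS ACSS2i, 98.2 to 153 in C57BI6 vehicle and 93.2 to 119 in C57BI6 ACSS2i, and 4 of 6 tested were higher in C57BI6 with either treatment. Summed T cell markers were at most 9.84 CPM in NGS and 11.4 to 51.3 CPM in C57BI6, with 6 of 8 genes higher in C57BI6 with vehicle and 7 of 8 with ACSS2i. The T cell gene Cd3e and the natural killer cell genes Gzma and Gzmb were at 0 in all 6 NGS libraries, which are also the shallow ones. The T cell gene Cd4 was found in every library, averaging 1.70 CPM in NGS and 0.934 CPM in C57BI6 with vehicle, and 1.23 and 2.65 CPM with ACSS2i. Natural killer cell genes were higher in C57BI6 in 5 of 7 with either treatment. With vehicle, 6 of 7 skin genes, 4 of 9 epithelial genes (1 higher) and 2 of 7 endothelial genes were lower in C57BI6. Skin sums were 927, 25.3 and 18.3 CPM in NGS vehicle 1 to 3 and at most 16.1 CPM in C57BI6 vehicle. Epithelial sums were 772, 349 and 326 CPM in NGS vehicle 1 to 3 and 352 to 408 CPM in C57BI6 vehicle. Ranges did not overlap in 2 of 7 skin genes and 6 of 9 epithelial genes. How far these calls rest on NGS vehicle 1 was not tested. The fibroblast sum ran from 7171 to 9672 CPM in NGS and 5710 to 7542 in C57BI6, and the ranges overlapped with ACSS2i and not with vehicle. Of 7 fibroblast genes, 5 were lower and 1 higher in C57BI6 with vehicle, and 4 and 1 with ACSS2i. Dcn went against the sum, averaging 1393 CPM in NGS vehicle and 2699 CPM in C57BI6 vehicle. Macrophage and monocyte sums overlapped, at 1377 to 2926 and 1574 to 2541 CPM.

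Among C57BI6 libraries of like treatment the tumours differed more in these genes than in most others. The SD of log2 CPM across the 4 C57BI6 vehicle libraries was 1.23 for Fos and 1.28 for Fosb, where the median was 0.14 over the 9447 genes whose mean log2 CPM reached 3. Fosb (mean log2 CPM 2.28) and Egr2 (2.09) lie below that level and are set against more abundant genes. In that group 9 of the 10 genes had an SD above that of 90% of those genes, Junb (0.16) being the exception, and in C57BI6 ACSS2i 6 of 10 did. Leaving out 1 library at a time gave 6 to 9 and 5 to 7. In both NGS groups the count was 2 of 10 (Fosb and Ier3 highest with vehicle, Dusp1 and Egr2 with ACSS2i), where the shallower libraries add counting error to the spread of every gene. In NGS, 7 of 10 genes with vehicle and 6 of 10 with ACSS2i had an SD above the median.

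**Figure D3:**
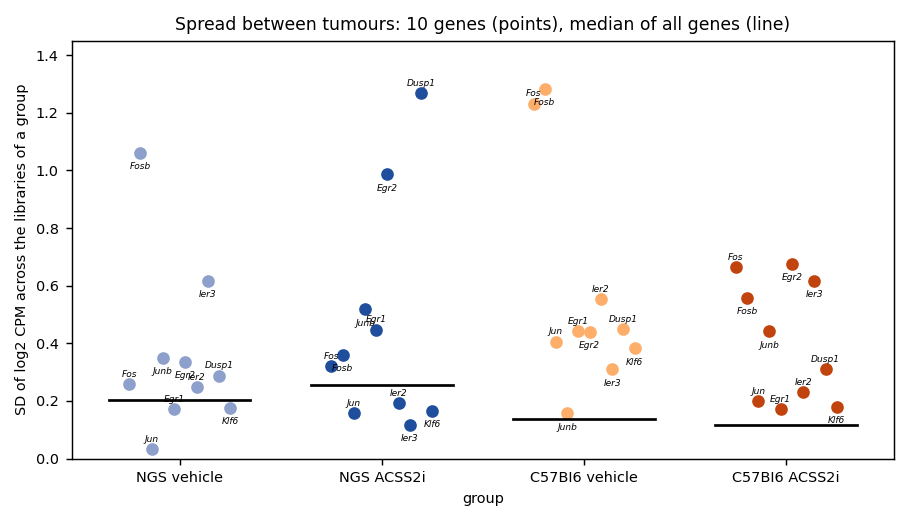
Standard deviation of log2 CPM across the libraries of a group (y axis) for the 10 genes (points) in the 4 groups (x axis), with a line at the median over 9447 genes. Fos and Fosb stand highest in C57BI6 vehicle, and all 10 points of both C57BI6 groups lie above the line.

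The spread was shared between genes within single tumours. C57BI6 vehicle 3 lay above its group's mean in 10 of 10 genes and was the highest of its group in 8, while C57BI6 vehicle 4 lay below in 9 of 10 and was the lowest in 9; Ier3 was the exception, at 658 CPM. From vehicle 4 to vehicle 3 Fos differed 7.13-fold and Fosb 7.88-fold. Related genes leaned the same way: of 15 other immediate early transcription factors, 14 lay above the group mean in vehicle 3 and 10 below it in vehicle 4, and of 36 effectors 31 and 27 did, while 51.4% and 50.1% of all genes lay above the mean in these libraries. Among treated tumours of the strain, C57BI6 ACSS2i 2 was highest in 6 genes and ACSS2i 3 in 4, and ACSS2i 1 was lowest in 6. By Dixon's ratio at its 95% critical value no library stood apart from the other 3 of its C57BI6 group in any of the 10 genes. The highest ratios were 0.813 (Egr1, vehicle), 0.804 (Jun, ACSS2i) and 0.783 (Dusp1, vehicle). The ratio takes each gene alone over 4 libraries, so it cannot judge a library that lies low or high in most members.

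**Figure D4:**
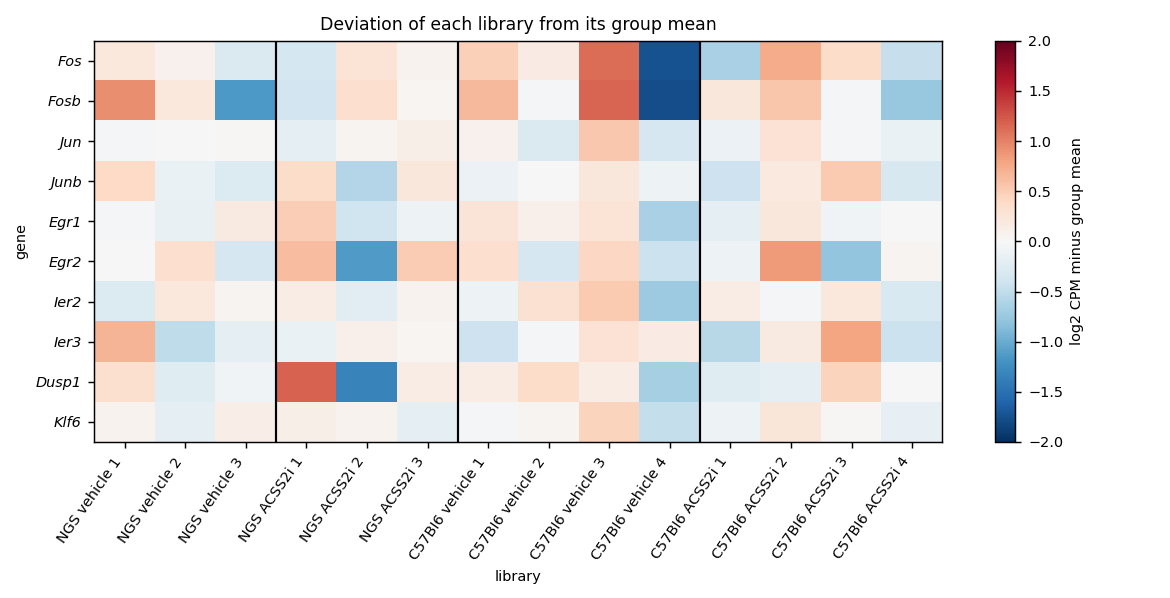
Log2 CPM minus the mean of its group (colour, red above and blue below, colours ending at -2 and 2) for the 10 genes (y axis) in the 14 libraries (x axis), with lines between groups. C57BI6 vehicle 3 is above its group mean in 10 of 10 genes and C57BI6 vehicle 4 below in 9 of 10.

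Marker sums of the C57BI6 tumours are set beside this order, and their part in it was not tested. Summed erythrocyte genes stood at 2097, 829, 2149 and 706 CPM in C57BI6 vehicle 1 to 4. In C57BI6 ACSS2i 1 to 4 they stood at 1040, 1533, 451 and 444 CPM. The members summed to 1848, 1980, 2380 and 1627 CPM in C57BI6 vehicle 1 to 4. Vehicle 3 was highest and vehicle 4 lowest in both sums, while vehicle 1 and 2 stood in opposite order. Fibroblast and epithelial sums were likewise highest in vehicle 3 (6996 and 408 CPM) and lowest in vehicle 4 (5710 and 352 CPM). Among the treated libraries the erythrocyte sum was highest in ACSS2i 2 and lowest in ACSS2i 4. The summed members were highest in ACSS2i 3 (1893 CPM) and lowest in ACSS2i 1 (1196 CPM), and gene by gene ACSS2i 2 was highest in 6 members. Fibroblast and neutrophil sums were also highest in ACSS2i 3 (7542 and 119 CPM) and lowest in ACSS2i 1 (6133 and 93.2 CPM). The epithelial sum went the other way, highest in ACSS2i 1 (461 CPM) and lowest in ACSS2i 4 (378 CPM). Neutrophil sums were lowest in vehicle 4 (98.2 CPM) and highest in vehicle 2 (153 CPM), with vehicle 1 and 3 at 127 and 128 CPM. The macrophage and monocyte sum was highest in vehicle 4, at 2058 CPM against 1690 CPM in vehicle 3. Heat shock genes summed to 8607 and 8420 CPM in vehicle 3 and 4, and skin genes to 16.1 and 15.4 CPM, so those sums were nearly level. Gene by gene, 12 of 12 heat shock genes lay above the group mean in vehicle 3 and 6 of 12 in vehicle 4. Total counts ran from 17.6 to 19.2 M over the group.

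The genes that followed the members most closely across the 14 libraries, after each group's mean was subtracted, were Actn1 (r = 0.90), Emg1 (0.89), Csrnp1 (0.88), Klf2 (0.88), Cited2 (0.88), Sf3a3 (0.88), Apbb1ip (0.87) and Ahcy (0.86), out of 9072 genes compared. These coefficients describe libraries that also share depth and cell mixture. They rest partly on C57BI6 vehicle 3 and 4: without both, r was 0.74 for Actn1 and Csrnp1 and 0.62 for Klf2. Klf2, a zinc finger factor induced by flow in endothelium, went from 41.7 CPM in vehicle 4 to 175 CPM in vehicle 3, and Csrnp1, an AXIN1-induced nuclear factor, from 11.1 to 34.1 CPM. Within the 10, Fos (r = 0.79 with the mean of the other 9) and Klf6 (0.76) followed the rest most closely and Ier3 (0.21) least.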

How the data were processed

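RNA of 14 mouse tumour libraries was measured by 3' end sequencing (QuantSeq). The authors deposited raw whole-number counts per gene in 1 table, used as deposited; per the submitters' processing notes the build was mm10 and the tools named were RSEM 1.2.3 and DESeq2, whose roles are not stated. The aligner, annotation and filters are not given in the sources used here, and estimated counts may have been rounded before deposit. Symbols came from GENCODE M21 (51596 of 51789 IDs).

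Genes passing edgeR's filterByExpr (17294) were scaled by TMM and tested with edgeR 4.0.16's quasi-likelihood test (R 4.3.3) in 1 model of the 4 groups, two-sided, Benjamini-Hochberg adjusted over all genes, threshold 0.05. Fold changes come from this model; CPM are counts scaled to a library total of 1000000. Log2 CPM used a prior count of 2. Intervals are 95% and unadjusted. Scripts were tested on simulated data. Total counts were 2.85 to 4.70 M (M for 1000000) in NGS and 17.6 to 20.3 M in C57BI6 libraries. Alternatives were DESeq2 1.42.0 (its size factors and its test), limma 3.58.1 voom with library weights, other filters (none, and 1 CPM in 3 libraries), the compared groups alone, a replicate block, and leaving out each library.

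The members and the gene lists were chosen with earlier results of these data known. All 10 members are reported; from each list, up to 4 genes past the threshold by smallest p, or else the gene nearest to it, were eligible for naming, and the 8 protein-coding genes most like the members' mean profile. The labels do not say that replicates are separate animals, so p-values measure the spread between these samples, which may be technical. Pairs of replicates differed by far more than counting noise. A listed gene that the naming rule picks is not reported here. Motifs were searched in RefSeq's promoter sequences, 250 bases before each start; the 50 after it were left out.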

Additional observations from a re-analysis of the deposited data

How the results depend on the processing

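No member was called for the inhibitor under any alternative run, in either strain or in the interaction, and no member's call between strains changed direction. Of 1019 alternative estimates for the members, 46 lost a call and 13 gained one, all between the strains. Counts over all genes moved more, and the cause was not tested. For ACSS2i in C57BI6 the 54 genes became 112 with no filter, 339 with DESeq2, 429 with limma voom, 266 with the compared groups alone and 15 to 127 without 1 library. For ACSS2i in NGS the 466 became 1574, 27 and 9 with DESeq2, voom and the compared groups alone, and 136 to 1766 without 1 library. The interaction's 3 became 7 with no filter, 283 with DESeq2, 0 with voom and 1 to 63 without 1 library. Members higher in C57BI6 with ACSS2i, 8, became 3 with voom and 3 to 7 without 1 library; with vehicle, 7 became 5 to 9. In NGS libraries Fosb and Egr2 rest on as few as 3 counts, which limits what could be seen there.

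Equal replicate numbers did not pair the samples: correlations of their deviations were -0.15 to 0.25 in C57BI6 (other pairs -0.38 to 0.44) and 0.001 to 0.049 in NGS (others -0.11 to 0.095). With the replicate number as a block, 9 genes passed for ACSS2i in C57BI6, 254 in NGS and 4 in the interaction, with 0 members in each; the calls of Spry1 and Rps6ka3 in NGS were lost with the block.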
